A study of Mus musculus with 8 samples.

Results

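Red cell genes were followed in B cells isolated from the spleens of 8 leukemia-prone mice at early removal criteria (ERC), the point at which a sick mouse had to be removed from the cohort. The set comprises 9 genes chosen by symbol: the adult α-globins Hba-a1 and Hba-a2, the adult β-globins Hbb-bs and Hbb-bt, the heme enzyme Alas2, the membrane protein Slc4a1, the erythropoietin receptor Epor and the transcription factors Klf1 and Gata1. All 9 had a row among the 24902 symbols of the count matrix. Of these, 7 had a value in all 8 libraries and passed the expression filter, which left 13173 genes tested, whereas Alas2 and Epor had no value in some libraries and stayed out of the main test.

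The 4 Eµ-PRMT5 mice carried a human PRMT5 transgene, the 3 Eµ-PRMT5/TCL1 or double transgenic mice carried it together with a human TCL1 transgene, and the 1 Eµ-TCL1 mouse carried TCL1 alone. The labels give the strain of all of them as C57BL/6N, and every one of the 8 mice was transgenic, so no library represents a healthy spleen. According to the methods, Eµ-PRMT5 is active in immature and mature B cells through an immunoglobulin promoter and enhancer and is heterozygous, and the double transgenic mice came from a cross with homozygous Eµ-TCL1 mice on C57BL/6J. The transgene ends in the 3′ untranslated region of the human β-globin gene, and whether its reads were counted on mouse β-globin genes is not given in the sources used here. Ages are not given, and cohorts mixed both sexes. B cells were enriched by removing other cells from the spleen suspension with a pan-B-cell kit, and each library is 1 mouse.

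Red cells are filled with hemoglobin, a tetramer of α- and β-globin chains that each hold a heme. During maturation in the bone marrow, and in the mouse also in the red pulp of the spleen, erythropoietin signals through Epor, Gata1 and Klf1 switch on the red cell program, Alas2 starts heme synthesis, and Slc4a1 (band 3) is built into the membrane. Enucleated red cells keep globin mRNA for a while after transcription has ended, whereas Klf1 and Epor mark nucleated precursors. Gata1 is also used by megakaryocytes, mast cells and eosinophils.

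The globin genes come as near-identical copies, and this limits what can be said of each copy. On GRCm38 (GENCODE vM21), Hba-a1 lies at chr11:32283511-32284465 and Hba-a2 at chr11:32296489-32297298, both on the plus strand. Hbb-bs lies at chr7:103826534-103828096 and Hbb-bt at chr7:103812524-103813996, both on the minus strand. The coding sequences of Hba-a1 and Hba-a2 have 426 bases each and differ at 1 of them, C381T, counted from the first base of the start codon and with the Hba-a1 base first. Those of Hbb-bs and Hbb-bt have 441 bases and differ at 1, C417T, with the Hbb-bs base first. The stretches around these single differences are printed because they are the only coding bases by which a read can be assigned to one copy. They come from exon 3 of 3, at chr11:32284321-32284365 and chr11:32297138-32297182 for the α genes and at chr7:103826670-103826714 and chr7:103812661-103812705 for the β genes, and the capital marks the differing base.
Hba-a1: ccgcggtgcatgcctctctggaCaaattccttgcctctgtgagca
Hba-a2: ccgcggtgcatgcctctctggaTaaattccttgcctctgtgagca
Hbb-bs: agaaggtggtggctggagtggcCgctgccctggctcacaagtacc
Hbb-bt: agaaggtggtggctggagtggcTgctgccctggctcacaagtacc

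Of the 150-base windows of the Hba-a1 transcript, 48.4% also occurred in Hba-a2, and 58.7% of those of Hbb-bs also occurred in Hbb-bt. How reads that fit both copies were counted is not given in the sources used here. The division between the copies is therefore uncertain, while the sums of the α genes and of the β genes do not depend on it, provided that such reads were kept.

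The promoters of the globins, Klf1 and Gata1 are shown because, over the 8 mice, the globins moved together while Klf1 and Gata1 followed them less closely. RefSeq promoters (GRCm38.p6) were matched for 8 of the 9 genes, all but Slc4a1. Each line gives the 150 bases before the RefSeq start of the gene. The windows are chr11:32283522-32283671 on the plus strand for Hba-a1, chr7:103827929-103828078 on the minus strand for Hbb-bs, chr7:103813924-103814073 on the minus strand for Hbb-bt, chr8:84901832-84901981 on the plus strand for Klf1 and chrX:7967911-7968060 on the minus strand for Gata1. Capitals mark the GATA forms AGATAA or AGATAG or TGATAA or TGATAG, the forms CCACCC and CCACACCC of the CACCC box and CCAAT, each on either strand, and ATATAA on the strand shown.
Hba-a1: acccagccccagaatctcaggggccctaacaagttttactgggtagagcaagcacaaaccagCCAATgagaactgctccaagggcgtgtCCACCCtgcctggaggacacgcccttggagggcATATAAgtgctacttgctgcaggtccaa
Hbb-bs: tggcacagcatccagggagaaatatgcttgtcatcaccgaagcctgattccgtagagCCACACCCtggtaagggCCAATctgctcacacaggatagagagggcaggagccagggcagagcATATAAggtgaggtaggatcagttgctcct
Hbb-bt: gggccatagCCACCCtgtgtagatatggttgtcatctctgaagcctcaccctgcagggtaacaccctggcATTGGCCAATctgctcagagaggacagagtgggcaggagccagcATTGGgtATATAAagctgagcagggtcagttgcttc
Klf1: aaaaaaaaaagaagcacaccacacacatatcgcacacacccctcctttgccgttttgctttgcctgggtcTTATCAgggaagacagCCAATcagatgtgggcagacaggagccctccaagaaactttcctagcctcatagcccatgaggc
Gata1: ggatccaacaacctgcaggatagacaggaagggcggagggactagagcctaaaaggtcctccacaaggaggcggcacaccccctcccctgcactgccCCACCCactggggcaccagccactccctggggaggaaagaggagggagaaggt

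The Hba-a1 window shares an unbroken run of 147 bases with that of Hba-a2. All 4 globin windows held the ATATAA letters, at least 1 CACCC form and at least 1 match to CCAAT but no GATA form, and Klf1, Alas2 and Epor held 1 GATA form each. Over all 32851 mouse promoter windows of this length, 3.36% held ATATAA, 24.5% CCAAT, 21.4% a CACCC form and 16.0% a GATA form. These matches describe letters in a window and say nothing on binding or on the levels of the genes.

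Counts on genes ranged from 3356297 in the Eµ-TCL1 mouse to 10252426 in Eµ-PRMT5 mouse 4. The defining B cell markers Cd79a, Cd79b and Ms4a1 were counted in all 8 libraries, with Cd79a lowest in Eµ-PRMT5 mouse 4, at 411 CPM, the remaining 7 lying between 924 and 2115 CPM. CPM are counts scaled to the TMM-adjusted size of each library. Mouse Prmt5, the ortholog of the transgene, averaged 149 ± 72.3 CPM (SD, n = 4) with Eµ-PRMT5 and 117 ± 8.19 CPM (SD, n = 3) in the double transgenic mice, and the Eµ-TCL1 mouse had 79.5 CPM. Eµ-PRMT5 mouse 4 stood apart in several of the results that follow, and fold changes are therefore also given without it.

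The α-globins were low in absolute terms and varied widely within each genotype. The means of Hba-a1, 53.2 ± 61.1 CPM (SD, n = 4) with Eµ-PRMT5 and 75.6 ± 73.2 CPM (SD, n = 3) in double transgenic mice, differed by less than either SD. Hba-a1 measured 44.6, 7.92, 18.2 and 142 CPM in Eµ-PRMT5 mice 1 to 4, 159, 45.5 and 22.3 CPM in Eµ-PRMT5/TCL1 mice 1 to 3 and 8.92 CPM in the Eµ-TCL1 mouse. The high libraries were mouse 4 of Eµ-PRMT5 and mouse 1 of Eµ-PRMT5/TCL1, Eµ-PRMT5 mouse 2 was the lowest, and the genotypes overlapped. Hba-a2 measured 23.7, 3.32, 10.3 and 56.3 CPM in Eµ-PRMT5 mice 1 to 4, 75.1, 20.3 and 7.99 CPM in the double transgenic mice, with 1.62 CPM in the Eµ-TCL1 mouse. The same pair of libraries was highest, and here the Eµ-TCL1 mouse was the lowest of all 8, with 6 counts.

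The β-globins had the same pair of libraries at the top. Hbb-bs, the copy with the higher level, measured 20.3, 2.37, 13.7 and 45.3 CPM in Eµ-PRMT5 mice 1 to 4, 46.7, 15.4 and 6.61 CPM in the double transgenic mice, with 6.22 CPM in the Eµ-TCL1 mouse. Hbb-bt measured 8.52, 1.42, 4.33 and 32.9 CPM in Eµ-PRMT5 mice 1 to 4, 27.9, 3.57 and 4.15 CPM in the double transgenic mice, with 0.811 CPM, from 3 counts, in the Eµ-TCL1 mouse. For both genes, mouse 4 of Eµ-PRMT5 and mouse 1 of Eµ-PRMT5/TCL1 lay above the other 6 mice.

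**Figure D1:**
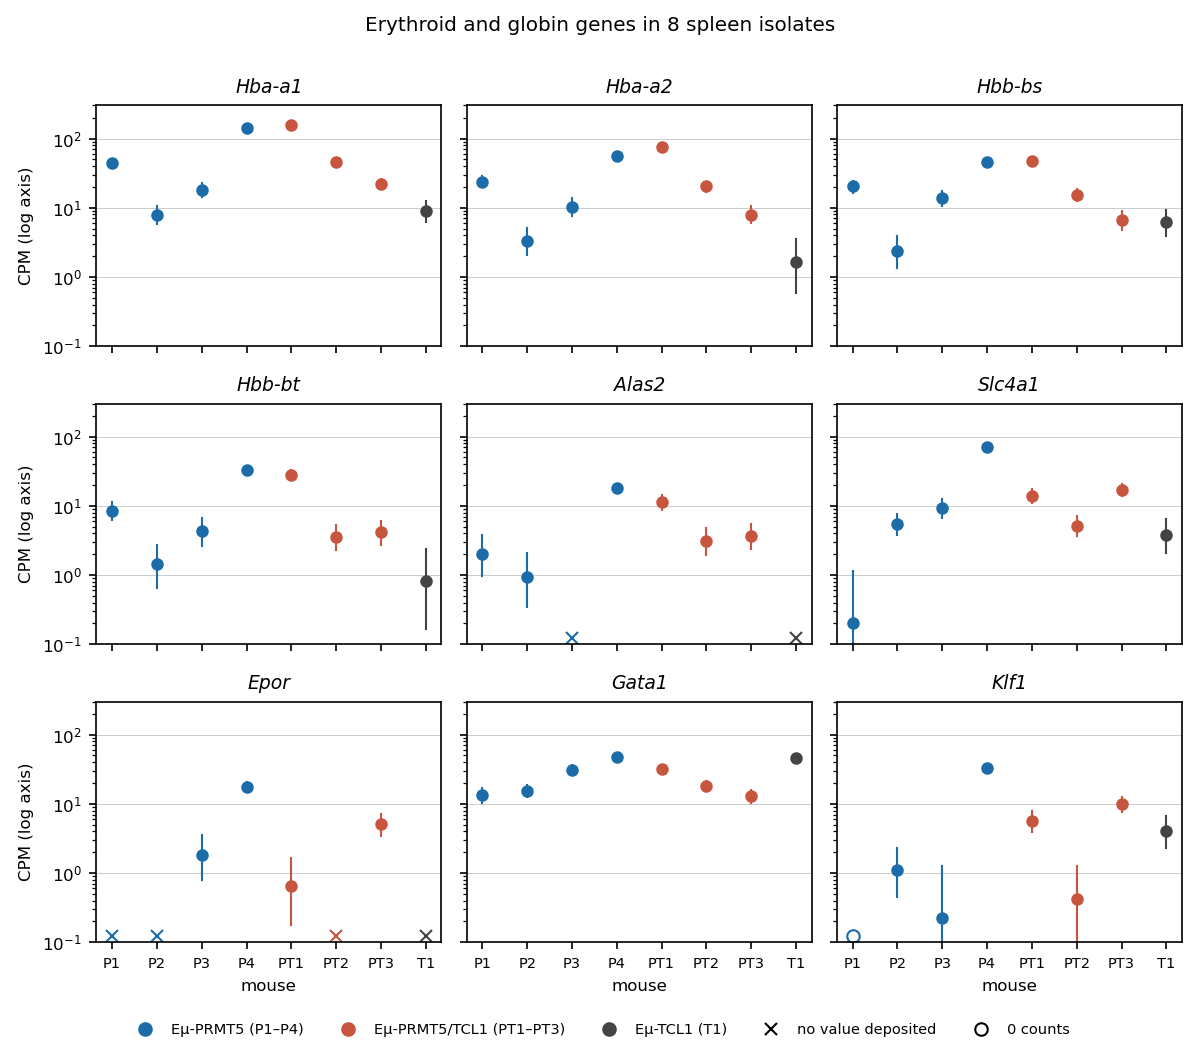
CPM on a log axis for the 9 genes in each mouse (P Eµ-PRMT5, PT Eµ-PRMT5/TCL1, T Eµ-TCL1), where lines are 95% Poisson intervals for counting error, crosses mark libraries with no deposited value and the open circle marks 0 counts. The globins peak in P4 and PT1 together, at 142 and 159 CPM for Hba-a1, whereas Slc4a1, Epor and Klf1 are highest in P4 alone, at 71.7, 17.5 and 32.9 CPM.

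Summed over the 4 adult globins, the level was 109 ± 117 CPM (SD, n = 4) with Eµ-PRMT5 alone, 145 ± 144 CPM (SD, n = 3) in the double transgenic mice, with 17.6 CPM in the Eµ-TCL1 mouse, so the SD was about as large as the mean in both replicated genotypes. In counts, this was between 0.00147% of the library in Eµ-PRMT5 mouse 2 and 0.0302% in Eµ-PRMT5/TCL1 mouse 1. The highest sums were 309 CPM in Eµ-PRMT5/TCL1 mouse 1 (95% Poisson interval 295 to 323) and 276 CPM in Eµ-PRMT5 mouse 4 (265 to 288). These intervals cover counting error only, and the distance between these mice depended on the scaling, being 305 against 302 CPM when symbols without a value were counted as 0 before scaling. Further down the order, the intervals of these neighbours overlapped, and the differences themselves were not tested: 97.2 CPM in Eµ-PRMT5 mouse 1 and 84.8 in Eµ-PRMT5/TCL1 mouse 2, 46.5 in Eµ-PRMT5 mouse 3 and 41.0 in Eµ-PRMT5/TCL1 mouse 3, and 17.6 in the Eµ-TCL1 mouse and 15.04 in Eµ-PRMT5 mouse 2. In bulk libraries such as these, fewer red cells and less globin mRNA per cell cannot be told apart.

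Ratios within a library do not depend on scaling. The α genes took between 61.3% and 74.7% of the adult globin counts in Eµ-PRMT5 mice (69.5% ± 5.79, SD, n = 4) and between 73.8% and 77.6% in Eµ-PRMT5/TCL1 mice (75.7% ± 1.90, SD, n = 3). The Eµ-TCL1 mouse had 60.0%, with an exact binomial interval of 47.1% to 72.0% because it rests on 65 globin counts. Hbb-bt took 33.3% ± 8.03 (SD, n = 4) of the β counts in Eµ-PRMT5 mice, 31.6% ± 11.1 (SD, n = 3) in the double transgenic mice and 11.5% (2.45% to 30.2%) in the Eµ-TCL1 mouse. The Eµ-PRMT5 and double transgenic mice overlapped in both shares, and the Eµ-TCL1 mouse was the lowest of the 8 in both, with intervals that reach into the range of the others. The Hbb-bt share carries the uncertainty of near-identical copies. If reads that fit both copies were not kept, the α share, the globin sums and every ratio to them are affected too. The other genes of the globin list were at most at 3.61 CPM. Hba-x, an embryonic α-like gene, was at most at 1.00 CPM, and Hbb-y, an embryonic β-like gene, had a value in 3 libraries, of at most 3.42 CPM. Hbq1b had a value in all 8 libraries, of 0.461 to 3.61 CPM. In the Eµ-TCL1 mouse its 2.97 CPM lay above Hba-a2 and Hbb-bt, so there the adult copies did not stand above it.

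Alas2 encodes the erythroid form of the first enzyme of heme synthesis and lies at chrX:150547375-150570638, where its exons overlap those of Apex2 on the other strand. It measured 2.03, 0.950 and 17.9 CPM in Eµ-PRMT5 mice 1, 2 and 4, had no value in mouse 3, and was at 11.3, 3.15 and 3.69 CPM in Eµ-PRMT5/TCL1 mice. The Eµ-TCL1 mouse had no value either. The pair of libraries that was highest in globin was also highest in Alas2, with Eµ-PRMT5 mouse 4 above Eµ-PRMT5/TCL1 mouse 1. Whether strand was used in counting is not given, so reads of Alas2 and Apex2 may be mixed.

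Epor, the receptor through which erythropoietin keeps precursors alive, lies at chr9:21958897-21963506 on the minus strand. It had a value in 4 of 8 libraries: 1.82 CPM in Eµ-PRMT5 mouse 3, 17.5 CPM in Eµ-PRMT5 mouse 4, 0.656 CPM in Eµ-PRMT5/TCL1 mouse 1 and 5.07 CPM in Eµ-PRMT5/TCL1 mouse 3. Eµ-PRMT5 mouse 4 was the highest, while Eµ-PRMT5/TCL1 mouse 1, the library richest in globin, had 4 counts. Because of the missing values, Alas2 and Epor were tested only with missing values counted as 0. For double transgenic over Eµ-PRMT5 mice, this gave log2 fold changes of 0.09 for Alas2 (standard error 1.37, adjusted p = 1 by edgeR's quasi-likelihood test) and −1.41 for Epor (standard error 1.98, adjusted p = 1).

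Slc4a1, the anion exchanger that also anchors the red cell skeleton, lies at chr11:102348824-102366203 on the minus strand. It measured 0.203, 5.38, 9.35 and 71.7 CPM in Eµ-PRMT5 mice 1 to 4, 13.9, 5.15 and 16.9 CPM in the double transgenic mice, with 3.79 CPM in the Eµ-TCL1 mouse. Eµ-PRMT5 mouse 4 was far above all others, and Eµ-PRMT5 mouse 1, next after the globin-rich pair in summed globin, had 1 count. The next library down was Eµ-PRMT5/TCL1 mouse 3, one of the lower libraries for globin.

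Klf1 activates adult β-globin and many other red cell genes and lies at chr8:84901928-84905291 on the plus strand. It measured 0, 1.11, 0.228 and 32.9 CPM in Eµ-PRMT5 mice 1 to 4, 5.57, 0.429 and 9.99 CPM in Eµ-PRMT5/TCL1 mice 1 to 3 and 4.06 CPM in the Eµ-TCL1 mouse. Mouse 4 held 285 Klf1 counts, whereas its 3 genotype-mates held 0 to 7. The count of 0 in mouse 1 allows a level of up to 0.609 CPM, the level that 3 counts would give in that library.

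Gata1, at chrX:7959260-7978071 on the minus strand, varied least. It measured 13.4, 15.5, 30.8 and 48.3 CPM in Eµ-PRMT5 mice 1 to 4, 31.5, 18.2 and 12.9 CPM in the double transgenic mice, with 45.4 CPM in the Eµ-TCL1 mouse. The highest level was 3.74 times the lowest, against 20.1 times for Hba-a1 and 46.3 times for Hba-a2. The Eµ-TCL1 mouse was second highest for Gata1 and lowest or second lowest for each globin. The megakaryocyte and platelet list of 16 genes summed to 215 CPM in the Eµ-TCL1 mouse, 229 CPM in Eµ-PRMT5 mouse 3 and 61.1 to 141 CPM in the other 6. Between 9 and 13 of these genes had a value in each library, and the rest added nothing to the sum. The part of megakaryocyte RNA in the Gata1 level was not tested.

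Per kilobase of exon, the scale on which genes can be compared, Hba-a1 had the highest level of the 9 genes in 7 of 8 libraries. In Eµ-PRMT5 mouse 4 it reached 175 CPM per kb, followed by Hba-a2 at 84.4, Hbb-bs at 59.0, Hbb-bt at 46.7, Klf1 at 21.5, Gata1 at 19.8, Slc4a1 at 14.7, Epor at 8.81 and Alas2 at 7.44 CPM per kb. In Eµ-PRMT5/TCL1 mouse 1, Hba-a1 was at 196 CPM per kb and Klf1 at 3.64 CPM per kb. In the Eµ-TCL1 mouse, Gata1 led the 9 genes with 18.6 CPM per kb and Hba-a1 followed with 10.99 CPM per kb.

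Set against the adult globins of the same library, Klf1, Slc4a1, Alas2 and Gata1 separated the mice with the most globin. Eµ-PRMT5 mouse 4 had 11.9 Klf1 counts per 100 globin counts (95% exact binomial interval 10.5 to 13.5), and Eµ-PRMT5/TCL1 mouse 1 had 1.81 (1.247 to 2.53). For Slc4a1 these values were 25.96 (23.7 to 28.4) and 4.51 (3.59 to 5.61), and for Alas2 6.47 (5.46 to 7.61) and 3.66 (2.84 to 4.66). Gata1 was at 17.5 (15.7 to 19.4) in Eµ-PRMT5 mouse 4 and at 10.2 (8.74 to 11.8) in Eµ-PRMT5/TCL1 mouse 1. The intervals of these libraries did not overlap in any of these genes, which compares libraries and not genotypes. Eµ-PRMT5/TCL1 mouse 3 had more Klf1 per globin than either, at 24.3 (18.3 to 32.03), and the Eµ-TCL1 mouse was at 23.1 (12.2 to 40.9). Within Eµ-PRMT5 mice, Slc4a1 ranged from 0.209 per 100 globin counts in mouse 1 to 35.8 in mouse 2.

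**Figure D2:**
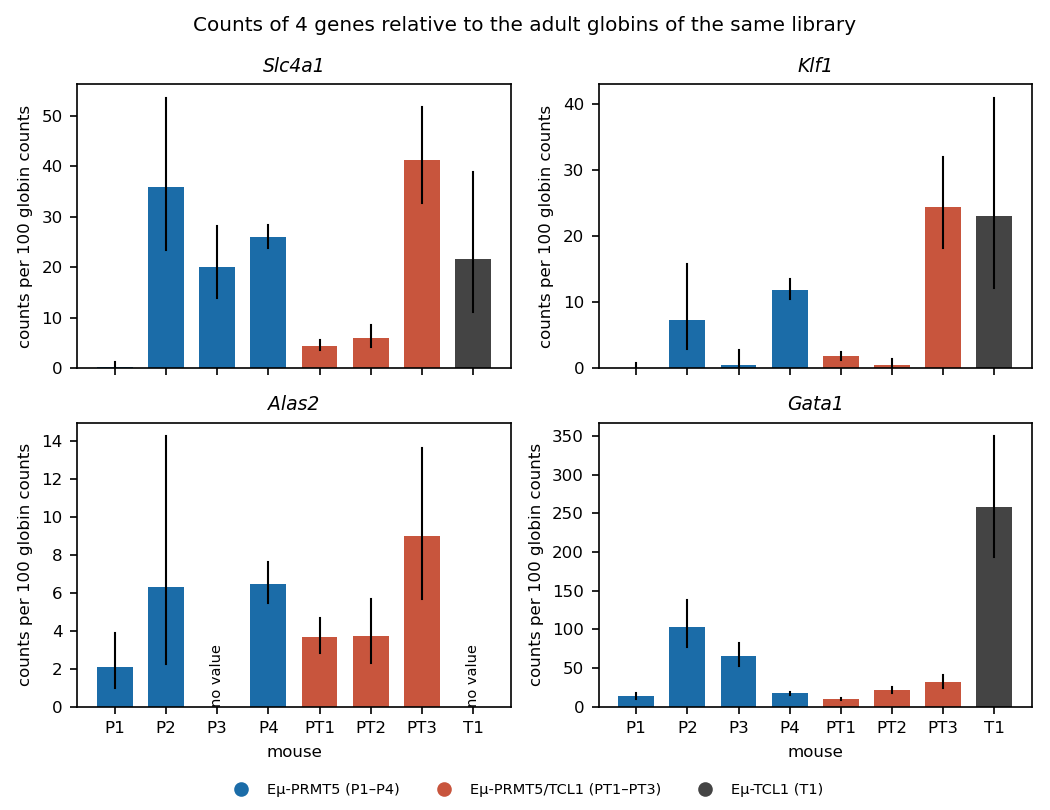
Counts of Slc4a1, Klf1, Alas2 and Gata1 per 100 counts of the 4 adult globins of the same library, by mouse (P Eµ-PRMT5, PT Eµ-PRMT5/TCL1, T Eµ-TCL1), with 95% exact binomial intervals as lines. PT1 and P4, the libraries richest in globin, differ in Klf1 (1.81 and 11.9) and in Slc4a1 (4.51 and 25.96), and Gata1 is highest in T1 at 258.

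The comparison of double transgenic with Eµ-PRMT5 mice asks whether red cell genes differ when TCL1 is added to PRMT5. None of the 7 tested genes passed an adjusted p under 0.05 with a fold change over 4, and neither did any other of the 13173 genes (0%, edgeR's quasi-likelihood test with Benjamini-Hochberg adjustment), although DESeq2 made 3 calls upwards and 1 downwards. At an unadjusted p under 0.05, the double transgenic mice were higher in 0.957% of all genes and lower in 1.21%, with 0 of the 7 in either. Nor did any of the 7 separate the groups without overlap, as 1.35% of all genes did upwards and 1.59% downwards. The log2 fold change was 0.50 for Hba-a1 (standard error 0.84, adjusted p = 1.00), 0.55 for Hba-a2 (0.85), 0.16 for Hbb-bs (0.81) and −0.01 for Hbb-bt (0.96). For Slc4a1 it was −0.86 (standard error 1.12), for Klf1 −0.71 (1.45) and for Gata1 −0.38 (0.52). The median of the 7 was −0.01, beside −0.09 over all genes tested.

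These signs rested on single mice. Without Eµ-PRMT5 mouse 4, the log2 fold change of Klf1 was 3.41 (adjusted p = 0.745, edgeR), that of Slc4a1 1.27, that of Hbb-bt 1.32 and that of Hba-a1 1.68. Without Eµ-PRMT5/TCL1 mouse 1, Hba-a1 stood at −0.65, Hba-a2 at −0.73, Hbb-bs at −0.89 and Hbb-bt at −1.62. Gata1 was at 0.070 without the first and −0.80 without the second. Without Eµ-PRMT5 mouse 4, 2 of the 7 were under an unadjusted p of 0.05 by edgeR. Of all 13156 genes in that fit, 392 were under it upwards and 368 downwards. The 2 genes of the set were Klf1 (unadjusted p = 0.0157, adjusted p = 0.745, edgeR's quasi-likelihood test) and Hba-a1 (unadjusted p = 0.0425, adjusted p = 0.846). No call was made in any of these fits.

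**Figure D3:**
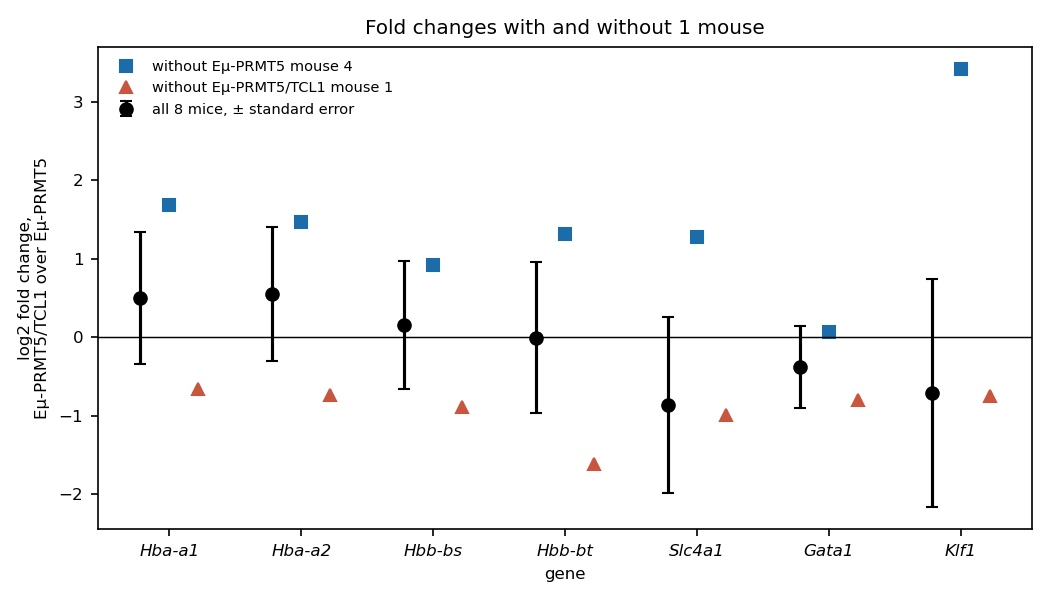
Log2 fold change of 7 genes in Eµ-PRMT5/TCL1 over Eµ-PRMT5 mice, fitted on all 8 mice (circles, with the standard error), without Eµ-PRMT5 mouse 4 (squares) and without Eµ-PRMT5/TCL1 mouse 1 (triangles). The squares lie above 0 for all 7 genes and the triangles below 0, with Klf1 spanning −0.74 to 3.41.

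Comparisons with the Eµ-TCL1 mouse set 1 library against the spread among the other genotypes. Relative to it, 6 of the 7 genes had a positive log2 fold change in Eµ-PRMT5 mice and again in Eµ-PRMT5/TCL1 mice, both of which share this mouse as the control. The largest were those of the globin copies, Hba-a2 with 3.84 in Eµ-PRMT5 mice (standard error 1.76, unadjusted p = 0.0498, adjusted p = 0.709) and 4.39 in Eµ-PRMT5/TCL1 mice (standard error 1.82, unadjusted p = 0.0329, adjusted p = 0.778) by edgeR's quasi-likelihood test, and Hbb-bt with 3.84 and 3.83 on 3 counts in the Eµ-TCL1 mouse. Gata1 had the opposite sign, at −0.75 and −1.12. Without Eµ-PRMT5 mouse 4, the log2 fold changes of Eµ-PRMT5 mice over the Eµ-TCL1 mouse were 1.40 for Hba-a1 (2.58 with it), 2.92 for Hba-a2, 0.95 for Hbb-bs (1.72 with it), 2.51 for Hbb-bt, 0.39 for Slc4a1 (2.52 with it), −1.19 for Gata1 and −3.02 for Klf1 (1.10 with it). Again 0% of genes passed the threshold in either comparison with edgeR, while DESeq2 called 4 higher and 14 lower in the first and 9 higher and 7 lower in the second. For Eµ-PRMT5 against Eµ-TCL1, an unadjusted p under 0.05 was reached upwards by 1.96% of genes and downwards by 4.82%, and by 1 and 0 of the 7. For Eµ-PRMT5/TCL1 against Eµ-TCL1, the shares were 1.75% and 4.33%, with again 1 and 0 of the 7.

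By level alone, the Eµ-TCL1 mouse was below all 7 other mice in Hba-a2 and Hbb-bt, 2 of 7, where 14.2% of all genes were below, and it was above all others in none of the 7, where 21.3% were above. It was below every Eµ-PRMT5 mouse and over 4-fold below their mean, with 1 CPM added to both, in the same 2 genes (0.736% of all genes). The same count against Eµ-PRMT5/TCL1 mice was 3 of 7, with Hba-a1 added (1.02% of all genes). Hba-a2 and Hbb-bt had 6 and 3 counts in the Eµ-TCL1 mouse, and the division between near-identical copies is uncertain. Eµ-PRMT5 mouse 2, which carries no TCL1, was lower than the Eµ-TCL1 mouse in Hba-a1 and Hbb-bs. It was also lower in the sum of the adult globins, at 15.04 CPM against 17.6 CPM.

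Other genes of red cell formation were read from lists of 119 further genes, of which 112 had a row and 88 were tested. None of the 88 passed the threshold in any of the 3 comparisons by edgeR. DESeq2 called 1 lower in Eµ-PRMT5 mice than in the Eµ-TCL1 mouse, the skeletal protein gene Dmtn, and 1 higher in double transgenic mice than in the Eµ-TCL1 mouse, Gypc (glycophorin C), and 0 of the 7 genes in any comparison. Dmtn, named after its values were seen, was at 58.4 CPM in the Eµ-TCL1 mouse and 4.27 to 8.73 CPM in Eµ-PRMT5 mice, and Gypc was at 11.4 CPM in the former and 75.9 to 96.3 CPM in double transgenic mice. In double transgenic over Eµ-PRMT5 mice an unadjusted p under 0.05 (edgeR) was reached by 0 upwards and 1 downwards. The one was Ireb2, an iron-responsive RNA-binding protein, at −0.81 on the log2 scale with a standard error of 0.34 (adjusted p = 1.00). Over Eµ-TCL1, the same p was reached by 3 upwards and 5 downwards in Eµ-PRMT5 mice and by 3 and 4 in double transgenic mice. The median log2 fold change of the 88 in double transgenic over Eµ-PRMT5 mice was −0.06, beside −0.09 over all genes tested.

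Across mice, genes of these lists were most often highest in Eµ-PRMT5 mouse 4. Among all tested genes, 20.1% had their highest level there, against 26 of the 88 (29.5%) and 4 of the 7, namely Gata1, Hbb-bt, Klf1 and Slc4a1. In heme synthesis, Alad, which makes the pyrrole ring, reached 260 CPM in that mouse and 69.3 to 192 CPM in the other 7. Tmem14c, a mitochondrial porphyrin carrier, reached 133 CPM against 31.9 to 100.3 CPM. Ppox did not follow, with its highest level of 91.7 CPM in Eµ-PRMT5 mouse 2. Summed over 16 heme genes, of which 15 or 16 had a value in each library, mouse 4 had 1355 CPM and the others 591 to 875 CPM.

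Red cell membrane genes split into broad and restricted ones. The 4 with the highest mean level, Epb41, Slc2a1, Gypc and Sptb, are also used outside red cells, and none peaked in Eµ-PRMT5 mouse 4: Epb41 was highest in Eµ-PRMT5 mouse 2 at 183 CPM and Slc2a1 in Eµ-PRMT5/TCL1 mouse 2 at 161 CPM. By contrast, Rhd and Rhag, subunits of the Rh complex, reached 76.8 and 53.6 CPM in Eµ-PRMT5 mouse 4, with 1.22 to 30.6 CPM and 2.53 to 10.8 CPM in the other mice. Car1, an abundant red cell carbonic anhydrase, reached 267 CPM there and 1.90 to 15.7 CPM in the 6 others with a value. These 3 genes were named after their values were seen. Icam4 was listed at 0 in all 8 libraries.

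The summed iron supply list and the chaperone and antioxidant list were also highest in Eµ-PRMT5 mouse 4, at 6497 and 2755 CPM. Eµ-PRMT5/TCL1 mouse 1 was next in both, at 5611 and 1896 CPM, with at most 5060 and 1707 CPM in the other mice. The transcription factor, Epor signalling and terminal maturation lists did not show this order, with their highest sums in Eµ-PRMT5 mouse 1. Among transcription factors, Klf13 was highest in Eµ-PRMT5 mouse 1 at 764 CPM, Nfe2l1 in Eµ-PRMT5 mouse 2 at 332 CPM, Klf3 in Eµ-PRMT5 mouse 1 at 188 CPM and E2f4 in Eµ-PRMT5 mouse 4 at 235 CPM. The mediators of Epor signalling Lyn, Stat5b, Pim1 and Jak2, which B cells use too, were not highest in Eµ-PRMT5 mouse 4, and the summed list ran from 678 to 957 CPM. Between 10 and 15 of the 15 genes of that list had a value in each library. Of the iron genes, the ferritin light chain Ftl1 was highest in Eµ-PRMT5 mouse 4 at 4138 CPM and the heavy chain Fth1 in Eµ-PRMT5/TCL1 mouse 1 at 1984 CPM. Gpx1, a peroxidase abundant in red cells, was highest in the globin-rich pair, at 889 CPM in Eµ-PRMT5/TCL1 mouse 1 and 781 CPM in Eµ-PRMT5 mouse 4, and Prdx2 reached 354 CPM in the latter. Of the genes of terminal maturation, the mitophagy receptor Bnip3l was highest in Eµ-PRMT5 mouse 1 at 302 CPM and Ube2l6 in Eµ-PRMT5 mouse 4 at 138 CPM.

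The B cell, neutrophil granule, and macrophage and monocyte lists also set the globin-rich pair apart. The summed B cell list was lowest in Eµ-PRMT5 mouse 4, at 2620 CPM, and next lowest in Eµ-PRMT5/TCL1 mouse 1, at 4546 CPM, with 5258 to 10032 CPM in the other 6. The neutrophil granule list was highest in the same libraries, at 16430 CPM in Eµ-PRMT5/TCL1 mouse 1 and 11122 CPM in Eµ-PRMT5 mouse 4, the rest having 1443 to 7800 CPM, and all 16 of its genes had a value in every library. The macrophage and monocyte list was at 1381 and 1261 CPM in these mice and at 308 to 762 CPM in the rest. It had a value for 15 and 16 of its 16 genes in these mice and for 9 to 15 in the rest. The proliferation list had all 16 genes highest in Eµ-PRMT5 mouse 4, where it summed to 7085 CPM, against 615 to 3066 CPM. It was next highest in Eµ-PRMT5/TCL1 mouse 3, at 3066 CPM, above Eµ-PRMT5/TCL1 mouse 1 at 2659 CPM. None of the T cell, NK cell, plasma cell, dendritic cell, megakaryocyte, mast cell and progenitor lists had both libraries of the pair at its top. The T cell list was lowest in Eµ-PRMT5 mouse 4, at 447 CPM. The part of these cells or of dividing cells in the levels of the red cell genes was not tested.

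**Figure D4:**
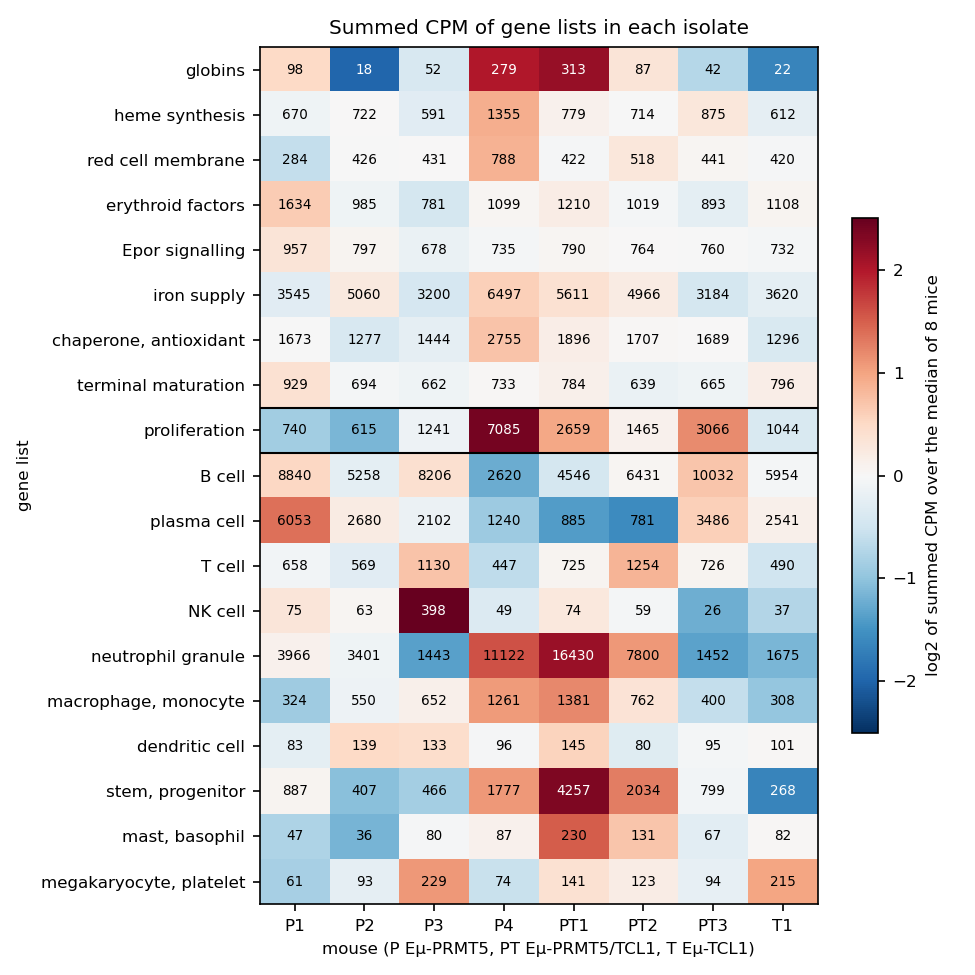
Summed CPM of 19 gene lists (rows; numbers are the sums) in each mouse (columns), coloured by the log2 of the sum over the median of the 8 mice, with red cell lists above the first line. The globin and neutrophil granule rows are highest in PT1 and P4. The heme, membrane, iron supply, chaperone and antioxidant, and proliferation rows are highest in P4, and the B cell row is lowest in P4 at 2620 CPM. A gene without a value in a library adds nothing to the sum there.

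Over the 8 mice, the globins resembled each other more than they resembled Slc4a1 or Klf1. Pearson's r of log2 CPM between pairs of globins ranged from 0.904 to 0.974, and without Eµ-PRMT5 mouse 4 from 0.872 to 0.971. The near-identical copies share reads, but α and β genes, which do not, also had values of 0.916 to 0.956. Between a globin and Slc4a1 r was at most 0.425, and between a globin and Klf1 at most 0.389, falling to at most 0.0757 and 0.0288 without that mouse. Slc4a1 and Klf1 had 0.812, and 0.676 without it. These are descriptions over 8 libraries that share depth and scaling.

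The genes outside the set most like the mean of its 7 tested genes were Ms4a6d, Parp9, Samhd1, Sgol1, Ebp, Gm4951, Aurka, Xdh, Ap2s1, Tacc3, Atox1, Rfwd3, Foxm1, Smim5 and Akr1a1, with Pearson's r between 0.947 and 0.989 over 8 libraries. Ms4a6d, a gene of monocytes and macrophages, ran from 3.96 CPM to 120 CPM in Eµ-PRMT5 mouse 4, and the mitotic kinase Aurka from 24.2 CPM to 230 CPM in the same mouse. Of the 50 most alike, 47 had their highest level in Eµ-PRMT5 mouse 4, 2 were in the proliferation list and 0 were in any red cell list. The red cell lists hold 88 and the proliferation list 16 of the 13173 genes tested, so 0 among 50 says little. This likeness was not computed without that mouse.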

How the data were processed

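B cells from the spleens of 8 mice were profiled by bulk RNA-seq. Raw counts were deposited by the authors, 1 column a mouse and 1 row a symbol. The methods describe low-input preamplification, paired-end sequencing and the CLEAR workflow, while the labels of these samples describe a stranded kit and a greater depth. The submitters' processing notes name Subread, featureCounts, DESeq2 1.20.0 and GRCm38. For these low-input libraries, the aligner, the annotation, the use of strand and the meaning of NA are not given in the sources used here. The methods do name STAR and an Ensembl annotation, for the other bulk RNA-seq set, whose kit and depth match the labels.

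The matrix has 36919 cells with NA, which were not read as 0 in the main test. In the summed lists, a gene without a value added nothing to that library. Sums of a list can therefore rest on different numbers of genes in different libraries. The 14072 symbols complete across the 8 mice were filtered by group (13173 genes), scaled by TMM and fitted with edgeR 4.0.16 in R 4.3.3, in 1 model over the 3 genotypes by quasi-likelihood, with p-values adjusted after Benjamini and Hochberg. Calls needed more than a 4-fold change at an adjusted p under 0.05. CPM are counts over the TMM-scaled library. Replicates are separate mice, and the spread comes from the replicated genotypes only. The code was tested on simulated data. DESeq2 1.42.0, other scalings and filters, NA as 0, only the groups compared, each mouse left out and a replicate block were alternatives, and leaving out both globin-rich libraries was added after seeing the data. Sequences and positions come from RefSeq and GENCODE through Python 3.11.15, and figures from matplotlib 3.10.9.

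Genes were named by rule: the 9 genes, up to 4 per red cell list by mean CPM, Ireb2 and 3 others as stated, the 15 most alike (log2 CPM, prior count 2), marker genes and Prmt5. A few genes that this rule names are not reported here. The genes and lists were chosen with earlier results of these data known. Reads carry no stated molecular identifiers, so Poisson and binomial intervals cover counting error only. Counts on genes of 3356297 to 10252426 per library make 1 count worth 0.115 to 0.270 CPM, so levels of a few CPM rest on few counts.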

Additional observations from a re-analysis of the deposited data

Results flagged for a closer look

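Among 31 values examined in the 4 Eµ-PRMT5 mice, 5 had 1 mouse whose distance from the nearest other mouse took more of the whole range than Dixon's critical value allows, and about 1.6 would be found by chance. Slc4a1 was at 71.7 CPM in mouse 4, with the other 3 mice between 0.203 and 9.35 CPM. Klf1 was at 32.9 CPM in mouse 4, with the others between 0 and 1.11 CPM. Alas1, the form of the first heme enzyme used by all cells, was at 220 CPM in mouse 4 and between 66.0 and 82.6 CPM in the others. The proliferation list summed to 7085 CPM in mouse 4 and to between 615 and 1241 CPM in the others. The NK cell list summed to 398 CPM in mouse 3 and to between 48.5 and 75.5 CPM in the others. All 8 of its genes had a value in mouse 3, and 5 to 7 had one in the others. The globins and Gata1 had no such mouse, and the values of 4 of these 5 come from the same library.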

How the results depend on the processing

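With edgeR, 0 genes were called in any comparison under any alternative run. DESeq2 called 3 higher and 1 lower in double transgenic over Eµ-PRMT5 mice, 4 higher and 14 lower between Eµ-PRMT5 and Eµ-TCL1, and 9 higher and 7 lower between Eµ-PRMT5/TCL1 and Eµ-TCL1, and the cause was not tested. The mean globin level of each genotype stayed within 1 SD under the other scalings, a wide margin because the SD was about as large as the mean. Summed globin ran from 237 to 302 CPM in Eµ-PRMT5 mouse 4 and from 305 to 315 CPM in Eµ-PRMT5/TCL1 mouse 1. Library size alone moved the median log2 fold change of all genes between Eµ-PRMT5 and Eµ-TCL1 from 0.04 to −0.21. Of 337 log2 fold changes of single genes under alternatives, 316 kept their sign and 21 turned, and none passed the threshold.

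In double transgenic over Eµ-PRMT5 mice, leaving out 1 mouse at a time gave log2 fold changes of −0.65 to 1.68 for Hba-a1, −0.73 to 1.47 for Hba-a2, −0.89 to 0.92 for Hbb-bs, −1.62 to 1.32 for Hbb-bt, −1.28 to 1.27 for Slc4a1, −0.80 to 0.070 for Gata1 and −1.54 to 3.41 for Klf1. The sign of the first 3 turned without Eµ-PRMT5/TCL1 mouse 1, that of Hbb-bs also without Eµ-PRMT5 mouse 2, that of Hbb-bt without Eµ-PRMT5 mouse 4 or Eµ-PRMT5/TCL1 mouse 2 or 3, and that of Slc4a1, Gata1 and Klf1 without Eµ-PRMT5 mouse 4. Against Eµ-TCL1, Klf1 ran from −3.02 to 1.65 in Eµ-PRMT5 mice, negative without mouse 4, and from −0.44 to 0.94 in Eµ-PRMT5/TCL1 mice, negative without mouse 3. Hbb-bt was at 0.14 with upper-quartile factors and 0.15 with library size alone. Without both globin-rich libraries, Hbb-bs was at −0.11, Slc4a1 at 1.15 and Klf1 at 3.38, and Klf1 between Eµ-PRMT5 and Eµ-TCL1 at −2.94. The cause of these turns was not tested beyond the mouse left out.

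Mice with the same number share only that number: deviations of same-numbered mice correlated at −0.02 to 0.16, although 5 of 6 mice correlated best with their own number, a hint from the data and not from the design. With the number as a replicate block (mice 1 to 3), an unadjusted p under 0.05 was reached by 495 genes upwards and 331 downwards against 374 and 368 in the same 6 mice without it, and 0 were called. In this fit Hba-a1 was at 1.56 (unadjusted p = 0.00468, adjusted p = 0.351, edgeR), Hba-a2 at 1.32 (unadjusted p = 0.0467, adjusted p = 0.755, edgeR), Hbb-bt at 1.01, Slc4a1 at 1.58 and Gata1 at 0.073, and Klf1 was not among the genes fitted. With 65 globin counts in the Eµ-TCL1 mouse, depth limits every ratio there.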

Other observations

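Likeness to 2 subsets of the genes was added after their values were seen. The genes most like the mean of the 4 adult globins over the 8 libraries included Mrpl33 (Pearson's r = 0.949), Oasl2 (0.949), Tgtp2 (0.939) and Cdk6 (0.939). Oasl2 and Tgtp2 are interferon-inducible genes, at 51.3 and 238 CPM in Eµ-PRMT5 mouse 4 and 37.4 and 201 CPM in Eµ-PRMT5/TCL1 mouse 1. Of the 50 genes most like the globins, 2 of the 88 tested genes of the red cell lists and 3 of the 16 neutrophil granule genes were present. The 50 were drawn from the 13173 genes tested, less the set itself.

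For the mean of Klf1 and Slc4a1, the 50 most alike, drawn from the same 13173 genes tested, held 4 of these 88 genes. Among the first 15 were Urod, a heme synthesis enzyme (r = 0.968), Lmo2, a partner of Gata1 in its complex (0.961), and Rhd (0.941). Urod was at 81.9 CPM in Eµ-PRMT5 mouse 4 and 41.0 CPM in Eµ-PRMT5/TCL1 mouse 1, and all 50 had their highest level in Eµ-PRMT5 mouse 4, without which the likeness was not computed.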
